A study of Mus musculus with 7 samples.

Results

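The complement genes of the mouse kidney were taken as 9 named members: C3, C4b, Cfb, Cfi, C1ra, C1s1, Serping1, Cd55 and Cd59a. They were the rows of the gene table that carried these symbols, and all 9 were found among 17537 listed genes. RNA sequencing of whole kidney covered 7 libraries, each from a male C57BL/6 mouse aged 8 to 10 weeks at the start. The 3 nondiabetic controls (C, replicates 2, 8 and 9) received no streptozotocin and, per the study's methods, sodium citrate in its place. The 2 untreated diabetic mice (DM-22, replicates 1 and 2) received streptozotocin, which destroys insulin-producing cells, injected at 60 mg/kg on each of 5 days. Per the study's methods, they were studied after 22 weeks of hyperglycemia. The end at 22 weeks was shared by all 3 groups. The 2 SGLT2i-treated mice (DM+SGLT2i, replicates 1 and 2) received the same streptozotocin and, after 16 weeks of hyperglycemia, the SGLT2 inhibitor dapagliflozin with their drinking water (25 mg/kg, 6 weeks). Glucose lowering in DM+SGLT2i mice was by this 1 agent, so that drug and glucose level cannot be told apart. Libraries held between 46456125 and 56541594 reads on listed genes, and levels are given as CPM, the read count of a gene scaled to library size by the authors.

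Complement is a cascade of proteases that marks cells and debris for removal and can lyse membranes. In the classical route, C1q binds its target and the proteases C1r and C1s cleave C4 and C2. The alternative route runs through factor B and factor D, and both routes meet at C3, whose cleavage leads to inflammatory peptides and to the membrane attack complex. Serping1, factor I, Cd55 and Cd59a hold the cascade back at several steps. The liver makes most circulating complement proteins, and renal tubular cells, fibroblasts and macrophages are known local sources. The data below are transcript levels and say nothing of protein, cleavage or deposition.

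Control replicate 2 stood apart. Over the tested genes its correlation was 0.939 with control replicate 8 and 0.935 with control replicate 9, against 0.991 between those 2, and it lay between 0.956 and 0.986 with the 4 diabetic libraries. Its summed level of 14 regulators of complement genes, such as Stat3, was the highest of the 7 libraries (514 CPM against 346 to 485). Kidney identity was present in every library: Slc34a1, the phosphate transporter of the proximal tubule, lay between 2841 and 9452 CPM and Umod, which marks the thick ascending limb, between 2337 and 6933 CPM. Each comparison is therefore given with all 7 libraries and without control replicate 2.

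The members spanned a wide range of abundance. On the scale of CPM per kb of exon, which allows genes to be compared, the median over 7 libraries was 39.8 for Serping1, 22.5 for Cd59a, 9.23 for C1s1, 8.52 for C1ra, 7.42 for C3, 6.33 for C4b, 3.87 for Cfi, 2.52 for Cd55 and 0.0522 for Cfb. Several neighbours in this order could not be separated. Serping1 exceeded Cd59a in 4 of 7 libraries, C1ra exceeded C3 in 4 of 7, C3 exceeded C4b in 5 of 7 and C4b exceeded Cfi in 5 of 7. Cd59a lay above C1s1 and Cd55 above Cfb in 7 of 7 libraries. The members with the highest levels per length were thus 2 inhibitors, of the first and of the last step of the cascade.

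C3 varied more between libraries than any other member. C3, the protein on which all routes converge, is encoded on chr17:57203970-57228136 (mm10, minus strand). Its level was 345, 15.9 and 16.3 CPM in control replicates 2, 8 and 9, 25.2 and 38.2 CPM in DM-22 replicates 1 and 2, and 224 and 94.1 CPM in DM+SGLT2i replicates 1 and 2. Control replicate 2 was the highest of all 7 libraries, whereas the other 2 controls were the lowest. Both DM+SGLT2i libraries lay above both DM-22 libraries. The highest level was 21.7 times the lowest, and the SD of C3 over the 7 libraries was 1.79 on the log2 scale, at percentile 99.8 of the tested genes, whose median SD was 0.26. Ranked by level per length among the tested genes of its own library, C3 moved from percentile 38.4 in control replicate 9 and 38.5 in control replicate 8 to 80.3 and 92.1 in the DM+SGLT2i libraries and 94 in control replicate 2. In whole kidney, more cells of a type and more RNA per cell cannot be told apart, here and for every member.

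**Figure D1:**
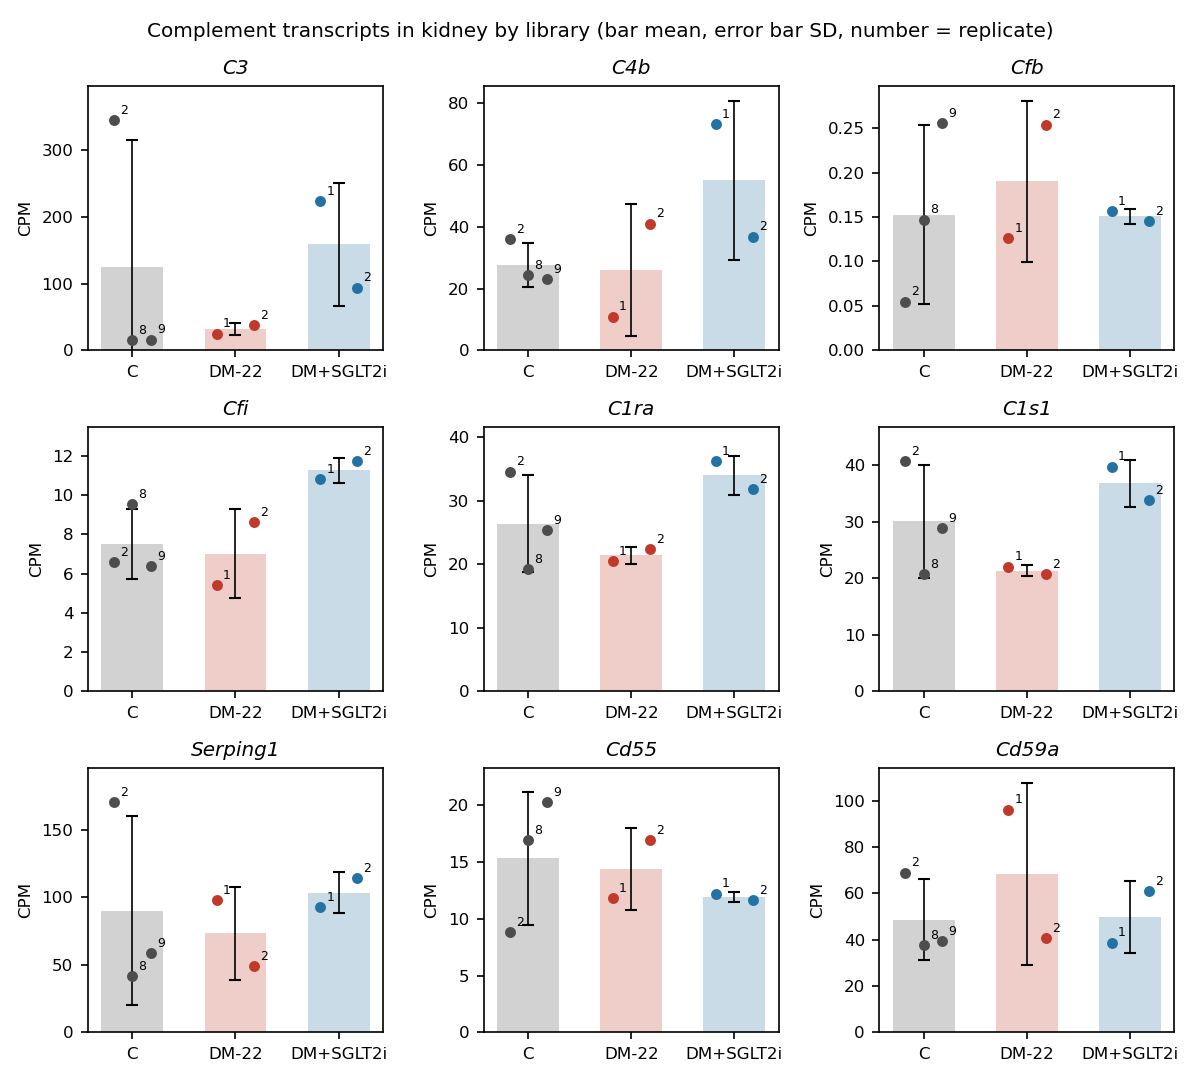
Level of each of the 9 complement genes in the 7 libraries, on a linear axis of CPM that starts at 0 and differs between panels. Points are libraries labelled with their replicate number, bars are group means and error bars are SD (n = 3 for C, 2 for DM-22 and 2 for DM+SGLT2i), and the lower error bar of the C3 controls is cut at 0. Control replicate 2 lies apart from replicates 8 and 9 for C3 (345 against 15.9 and 16.3 CPM) and Serping1 (170 against 41.5 and 58.4 CPM), and the 2 DM+SGLT2i points lie above both DM-22 points for C3, Cfi, C1ra and C1s1.

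The upstream sequence of C3 is shown because this gene had the widest spread, and those of C1ra and C1s1 because these genes moved together. RefSeq promoter entries (GRCm38.p6, the assembly of the mm10 build) matched 5 of the 9 members, namely C3, C1ra, C1s1, Cd55 and Cd59a. Entries for C4b, Cfb, Cfi and Serping1 were not used here. The 250 bases before each transcript start were searched on both strands for TATAAA (a core promoter motif), TTGCGNAA (C/EBP), GGGNNTTTC (a kappa B core), TTCNNNGAA (STAT) and GAAANNGAA (an interferon response element), the last 4 being motifs of factors that act in cytokine and acute-phase responses. The RefSeq start of C1ra lies inside the GENCODE gene model, whose first base is 124512405. Capitals mark the only match found in the 3 windows, and no match overlapped another.
C3, chr17:57228137-57228386, minus strand: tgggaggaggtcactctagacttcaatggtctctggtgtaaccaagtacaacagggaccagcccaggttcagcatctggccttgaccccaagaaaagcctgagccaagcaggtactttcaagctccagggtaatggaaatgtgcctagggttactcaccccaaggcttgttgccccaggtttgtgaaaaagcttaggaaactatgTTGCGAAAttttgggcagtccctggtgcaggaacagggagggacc
C1ra, chr6:124512371-124512620, plus strand: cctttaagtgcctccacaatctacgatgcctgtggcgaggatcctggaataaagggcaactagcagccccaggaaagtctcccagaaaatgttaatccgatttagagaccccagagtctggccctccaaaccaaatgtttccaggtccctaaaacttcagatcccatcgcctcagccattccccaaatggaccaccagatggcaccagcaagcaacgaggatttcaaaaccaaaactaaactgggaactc
C1s1, chr6:124542360-124542609, minus strand: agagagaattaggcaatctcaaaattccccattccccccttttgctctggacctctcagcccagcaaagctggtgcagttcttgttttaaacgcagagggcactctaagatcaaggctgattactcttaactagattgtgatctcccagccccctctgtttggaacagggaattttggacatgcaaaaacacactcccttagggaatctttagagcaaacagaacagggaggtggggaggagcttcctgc
The C3 window held TTGCGAAA, a match to the C/EBP motif, between 45 and 38 bases before the start. Among 32536 distinct windows of 250 bases in the table, 0.676% held this motif. The C1ra window, the 2 overlapping windows of C1s1 and the Cd55 window held none of the 5 motifs, which were present in 12.3% (core promoter motif), 3.71% (kappa B core), 7.04% (STAT) and 7.15% (interferon response) of all windows. Cd59a held GAAAGGGAA, a match to the interferon response motif, between 187 and 179 bases before its start. A match describes these letters only.

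C4b and Cfb, the other genes that feed the C3 convertases, behaved differently from C3. C4b, the fourth component cleaved by C1s, is encoded on chr17:34728380-34743882 (minus strand). Its level was 36.0, 24.3 and 23.0 CPM in control replicates 2, 8 and 9, 10.9 and 41 CPM in DM-22 replicates 1 and 2, and 73.2 and 36.8 CPM in DM+SGLT2i replicates 1 and 2. The 2 DM-22 mice held the lowest and the second highest value of the 7 libraries, so that this group enclosed all the controls. Both DM+SGLT2i libraries lay above the 3 controls. The ratio of C3 to C4b, both per length, was 0.725 and 0.784 in control replicates 8 and 9, 2.56 and 1.03 in the DM-22 libraries, 3.38 and 2.83 in the DM+SGLT2i libraries and 10.6 in control replicate 2.

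Cfb, the protease precursor of the alternative C3 convertase, was close to the limit of detection. It lies on chr17:34856374-34862518 (minus strand), and it held between 3 and 12 reads per library, or 0.055 to 0.256 CPM. It did not reach 1 CPM in any library and was not tested, and no fold change is given. Of its exon bases, 79.5% are shared on the same strand with the gene model Gm20547, which reads through it, so that its low count need not stand for all Cfb transcripts. How reads in such shared exons were counted is not given in the sources used here. The neighbouring C2, the companion of C4b in the classical convertase, was also low, at 0.391 to 0.919 CPM. The model Gm20547 runs past the end of Cfb to base 34882042, and whether it shares exons with C2 was not examined.

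C1ra and C1s1, the mouse genes of the C1r and C1s proteases, rose and fell together from library to library. C1ra (chr6:124512405-124523443, plus strand) was at 34.6, 19.3 and 25.4 CPM in control replicates 2, 8 and 9, at 20.5 and 22.4 CPM in DM-22 and at 36.2 and 31.8 CPM in DM+SGLT2i mice. C1s1 (chr6:124530345-124542359, minus strand) was at 40.7, 20.8 and 28.9 CPM in the controls, at 22.1 and 20.7 CPM in DM-22 and at 39.8 and 33.9 CPM in DM+SGLT2i mice. For both genes the DM+SGLT2i libraries lay above the DM-22 libraries without overlap, and control replicate 2 lay with the DM+SGLT2i libraries. The ratio of C1ra to C1s1 per length stayed between 0.892 and 1.14 in all 7 libraries, while the highest level of C1ra was 1.88 times its lowest and that of C1s1 1.97 times. Pearson's r between the 2 genes was 0.97 over 7 libraries (Spearman's rho 0.86) and 0.94 without the 2 libraries farthest from the median of C1ra, given here as a description.

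Serping1 and Cd55, inhibitors that act before the terminal step, ran in opposite directions. Serping1, the C1 inhibitor that inactivates C1r and C1s, is encoded on chr2:84765387-84775444 (minus strand). It was at 170, 41.5 and 58.4 CPM in control replicates 2, 8 and 9, at 97.7 and 49.0 CPM in DM-22 and at 92.4 and 114 CPM in DM+SGLT2i mice. Control replicate 2 held the highest value and the other controls 2 of the 3 lowest, and the DM-22 mice overlapped both other groups. Cd55, the decay-accelerating factor that takes apart C3 convertases on the cell surface, is encoded on chr1:130439027-130462744 (minus strand). It was at 8.81, 16.9 and 20.2 CPM in the controls, at 11.8 and 16.9 CPM in DM-22 and at 12.2 and 11.6 CPM in DM+SGLT2i mice. Here control replicate 2 was the lowest of all libraries and control replicate 9 the highest. Pearson's r between Serping1 and Cd55 was -0.92 over 7 libraries (Spearman's rho -0.86) and -0.97 without the 2 libraries farthest from the median of Serping1.

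Cfi and Cd59a are the other 2 inhibitors among the members. Cfi, factor I, the protease that inactivates C3b and C4b, is encoded on chr3:129835884-129875332 (plus strand). It was at 6.58, 9.54 and 6.37 CPM in control replicates 2, 8 and 9, at 5.4 and 8.6 CPM in DM-22 and at 10.8 and 11.7 CPM in DM+SGLT2i mice. The DM+SGLT2i libraries held the 2 highest values, and control replicate 2 did not stand apart for this gene. Cd59a, the anchored protein that blocks assembly of the membrane attack complex, is encoded on chr2:104095801-104115354 (plus strand). It was at 68.9, 37.6 and 39.4 CPM in the controls, at 96.1 and 40.7 CPM in DM-22 and at 38.7 and 60.8 CPM in DM+SGLT2i mice. The 2 mice of each diabetic group differed more from each other than control replicates 8 and 9 did.

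Several members have a close copy in the mouse genome, and the sources used here do not say how reads that match both were assigned. Of all 50-base stretches of the member's transcripts, 48% of C1ra were also in C1rb, 34.6% of C4b in C4a, 21.8% of C1s1 in C1s2, 8% of Cd55 in Cd55b and 3.87% of Cd59a in Cd59b. The member took between 70.1% and 72.8% of the summed CPM of C1ra and C1rb in the 7 libraries, between 85.9% and 89.6% of that of C1s1 and C1s2, between 88.4% and 93.6% for Cd55 and Cd55b, and between 79.7% and 83.2% for Cd59a and Cd59b. For C4b and C4a the share ran from 67.8% to 85.7%. The share thus varied little between libraries for the C1r pair and more for the C4 pair. A steady share does not show that reads matching both were assigned correctly, so single values of C1ra and C4b remain uncertain. Antisense gene models overlap 18.4% of the exon bases of C1s1 (Gm16567) and 2.1% of those of Cd55 (Gm16083). The library kit marks strand, whereas the strand setting of the counting is not given in the sources used here.

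Diabetic mice were first compared with nondiabetic controls. Only the diabetic mice received streptozotocin, so lasting hyperglycemia and any other effect of streptozotocin cannot be told apart. C3 was at 31.7 ± 9.19 CPM in DM-22 mice (SD, n = 2) and at 126 ± 190 CPM in controls (SD, n = 3), or 16.1 ± 0.259 CPM (SD, n = 2) without control replicate 2. The log2 fold change of C3 was accordingly -0.54 (95% CI -3.70 to 2.63) with all controls and 0.92 (95% CI -0.10 to 1.95) without that library, a change of sign. In a limma fit across all 13976 tested genes, 0 of the 8 tested members passed a Benjamini-Hochberg adjusted p of 0.05 and 0 had an unadjusted p under 0.05, where 0% and 4.47% of all genes did; voom weights on the recovered reads also gave 0 of 8 on both counts, here and for the comparisons of DM+SGLT2i or all diabetic mice with all controls. The groups overlapped for all 8 members, while they did not overlap for 20.1% of all genes. The largest estimate after C3 was C1s1 at -0.43 (95% CI -1.09 to 0.22, limma adjusted p = 0.804). The median log2 fold change of the 8 members was -0.18, beside 0.00 over all tested genes.

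Without control replicate 2, again 0 of the 8 members passed the adjusted threshold in DM-22 mice and 0 passed unadjusted, although 0.0143% and 25.2% of all genes did. C3 and Cd59a were higher in both DM-22 mice than in control replicates 8 and 9, where 59.5% of all genes did not overlap. Cd59a was at 68.4 ± 39.2 CPM in DM-22 mice (SD, n = 2) and at 38.5 ± 1.30 CPM in these 2 controls, a log2 fold change of 0.69 (95% CI -0.34 to 1.72, limma adjusted p = 0.34). The higher value came from DM-22 replicate 1, which stood apart in markers of nephron segments. In DM-22 replicates 1 and 2, Cd59a was at 96.1 and 40.7 CPM, the 6 collecting duct markers summed to 1249 and 914 CPM, the 6 markers of the thick ascending limb and distal tubule to 13175 and 5254 CPM, and the 8 inner medulla and urothelium markers to 396 and 9.11 CPM. These sums were 630 and 610, 5246 and 4516, and 52.2 and 55.4 CPM in control replicates 8 and 9. The 4 libraries highest in Cd59a were also the 4 highest in collecting duct markers, in the same order, and the part of these segments in the difference was not tested. Serping1 changed sign in the same way as C3, from -0.10 with all controls to 0.49 (95% CI -0.37 to 1.35) without control replicate 2.

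DM+SGLT2i mice, studied after glucose lowering, were then compared with the same controls. With all controls, 0 of 8 members passed the adjusted threshold and 0 passed unadjusted, beside 0% and 1.08% of all genes. C4b and Cfi were higher in both DM+SGLT2i mice than in all 3 controls, and 12.3% of all genes did not overlap. The log2 fold change was 0.92 for C4b (95% CI -0.44 to 2.28) and 0.58 for Cfi (95% CI -0.06 to 1.21), each with a limma adjusted p of 1. C3 was at 159 ± 91.7 CPM in DM+SGLT2i mice (SD, n = 2), a log2 fold change of 1.67 (95% CI -1.49 to 4.84) over the controls. The estimate was higher in DM+SGLT2i mice for 7 of the 8 members, all but Cd55, with a median of 0.43 beside -0.01 over all genes.

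Without control replicate 2 the estimates in DM+SGLT2i mice were further from 0 for all tested members but Cfi, which moved from 0.58 to 0.50. Still none of the members passed the adjusted threshold. C3 had a log2 fold change of 3.13 (95% CI 2.11 to 4.16, limma adjusted p = 0.0724), which is 8.77-fold on the log2(CPM + 0.5) scale. Serping1 stood at 1.05 (95% CI 0.19 to 1.92), C1ra at 0.61 (95% CI 0.18 to 1.03) and C1s1 at 0.57 (95% CI 0.11 to 1.04). Cd55 was the only one of the 5 with a lower estimate, at -0.61 (95% CI -1.11 to -0.10). These 5 of 8 members had an unadjusted p under 0.05, beside 17.9% of all genes, and 0 of 8 passed adjusted, beside 0.122%. The same 0 of 8 and 5 of 8 were obtained with voom weights on the recovered reads. The groups did not overlap for 7 of 8 members, beside 61.7% of all genes. The median log2 fold change was 0.59 beside -0.02 over all genes.

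**Figure D2:**
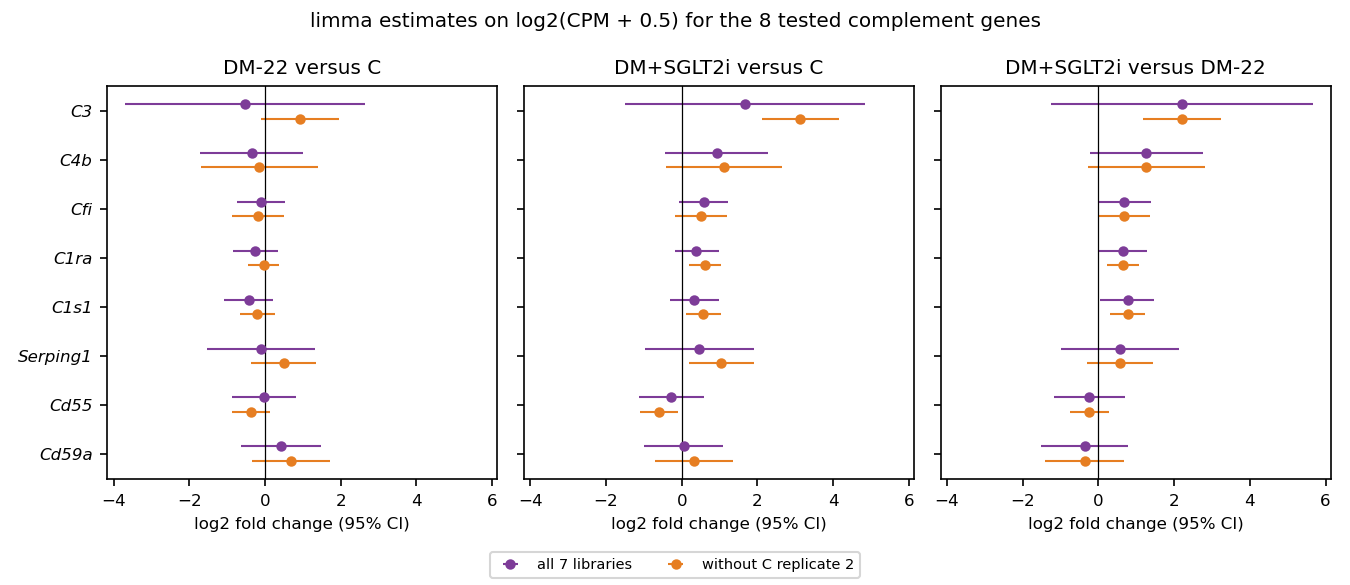
Log2 fold change of the 8 tested complement genes in the 3 group comparisons, with points for limma estimates on log2(CPM + 0.5) and lines for 95% confidence intervals, with all 7 libraries and without control replicate 2. The estimate of C3 in DM-22 against C moves from -0.54 to 0.92 when control replicate 2 is left out, and that in DM+SGLT2i against C from 1.67 to 3.13, while the estimates between DM+SGLT2i and DM-22 do not use the controls and differ only in their intervals.

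The comparison of DM+SGLT2i with DM-22 mice, which both received streptozotocin, does not rest on the controls. C1ra was at 34.0 ± 3.08 CPM in DM+SGLT2i mice and at 21.5 ± 1.32 CPM in DM-22 mice (SD, n = 2 each), a log2 fold change of 0.65 (95% CI 0.01 to 1.29). C1s1 was at 36.8 ± 4.17 CPM and 21.4 ± 1.01 CPM, a log2 fold change of 0.77 (95% CI 0.05 to 1.48). Cfi was at 11.3 ± 0.652 CPM and 7 ± 2.26 CPM, a log2 fold change of 0.68 (95% CI -0.01 to 1.38). C3 had the largest estimate, 2.21 (95% CI -1.26 to 5.67), with a wide interval because the spread within the controls enters the shared error. Without control replicate 2 this interval was 1.19 to 3.23 around the same estimate.

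None of these differences passed the correction for all genes. The limma adjusted p was 0.881 for C1ra, C1s1, Cfi and C3, and 0 of 8 members passed, beside 0% of all genes. C1ra and C1s1 (2 of 8) had an unadjusted p under 0.05, at 0.0478 and 0.039, beside 3.91% of all genes. Over 19 alternative fits the unadjusted p of C1ra lay between 0.00829 and 0.175 and was under 0.05 in 12, and that of C1s1 lay between 0.00548 and 0.157 and was under 0.05 in 13. The number of members under 0.05 was 1 with median-of-ratios size factors (C1s1), 3 with voom weights (with Cfi), and 0 without control replicate 9, without DM-22 replicate 1 and without either DM+SGLT2i library. Without control replicate 2 in the fit the members were C3, C1ra and C1s1 (3 of 8), beside 10.8% of all genes, and 0 of 8 passed adjusted, beside 0%. The 2 groups did not overlap for C3, Cfi, C1ra and C1s1 (4 of 8 members, all higher in DM+SGLT2i mice), beside 41.5% of all genes, so this share was near the background. The estimate was higher for 6 of 8 members, with a median of 0.67 beside 0.00 over all genes. Cd55 (-0.24, 95% CI -1.17 to 0.69) and Cd59a (-0.36, 95% CI -1.51 to 0.79) had the lower estimates.

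Taken as 1 group, the 4 diabetic libraries did not differ from the controls in any member after correction. With all controls 0 of 8 passed adjusted and 0 unadjusted, beside 0% and 2.04% of all genes, and the groups overlapped for all 8, beside 2.69% without overlap among all genes. Without control replicate 2, 0 of 8 passed adjusted, beside 0.2%, and C3, Serping1 and Cd55 (3 of 8) passed unadjusted, beside 24.8%. C3 then had a log2 fold change of 2.03 (95% CI 1.14 to 2.92, limma adjusted p = 0.0707) and was the only 1 of 8 members without overlap, beside 35.9% of all genes. The comparisons with controls share those control libraries and are not independent of each other.

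The rest of the complement pathway was described with 51 further genes in 4 lists, of which 44 were in the table and 36 were tested. In no comparison with all 7 libraries did any of the 36 pass the adjusted threshold. Unadjusted, 3 of 36 passed in DM-22 against C (1 higher, 2 lower), beside 4.47% of all genes, 0 in DM+SGLT2i against C, beside 1.08%, 3 in DM+SGLT2i against DM-22 (all higher), beside 3.91%, and 0 for all diabetic mice, beside 2.04%. The unadjusted counts without control replicate 2 were 12 of 36 in DM-22 against C (7 higher, 5 lower), beside 25.2%, and 14 in DM+SGLT2i against C (12 higher, 2 lower), beside 17.9%. They were 14 in DM+SGLT2i against DM-22 (13 higher, 1 lower), beside 10.8%, and 12 for all diabetic mice (9 higher, 3 lower), beside 24.8%. The estimate was higher in DM+SGLT2i than in DM-22 mice for 27 of 36 genes, with a median log2 fold change of 0.43 beside 0.00 over all genes. The largest estimate in the 3 comparisons between groups belonged to Cfd, and in all diabetic mice against C to Cpb2 (0.86, 95% CI -1.04 to 2.76), which encodes the carboxypeptidase that trims C3a and C5a.

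Cfhr2, C8g and Cfp, named after their values were seen, were among the genes with an unadjusted p under 0.05. Cfhr2 was at 9.84, 6.95 and 11.9 CPM in control replicates 2, 8 and 9, at 4.95 and 3.61 CPM in DM-22 and at 11.2 and 8.15 CPM in DM+SGLT2i mice. Both DM-22 libraries lay below the other 5, and control replicate 2 did not stand apart. The log2 fold change of Cfhr2 was -1.06 in DM-22 against C (95% CI -1.74 to -0.38, limma adjusted p = 0.804), -1.02 without control replicate 2, 1.09 in DM+SGLT2i against DM-22 (95% CI 0.35 to 1.83, limma adjusted p = 0.881) and 0.03 in DM+SGLT2i against C. Cfp, properdin, which stabilizes the alternative convertase, was at 3.09 ± 0.998 CPM in DM+SGLT2i and 1.05 ± 0.343 CPM in DM-22 mice (SD, n = 2 each; limma adjusted p = 0.881). C8g was at 22.5 ± 2.12 CPM in DM-22 mice (SD, n = 2) and 15.5 ± 2.80 CPM in controls (SD, n = 3; limma adjusted p = 0.804).

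The C1q genes, whose product carries C1r and C1s, followed a different order from C1ra and C1s1. C1qa was at 93.9, 13.7 and 13.7 CPM in control replicates 2, 8 and 9, at 31.3 and 27.8 CPM in DM-22 and at 37.3 and 42.1 CPM in DM+SGLT2i mice, and C1qb at 86.3, 15.1 and 15.8 CPM, 31.3 and 26.6 CPM, and 35.1 and 41.5 CPM. Without control replicate 2 the log2 fold change of C1qa was 1.08 in DM-22 against C (95% CI 0.76 to 1.41, limma adjusted p = 0.0781) and 1.5 in DM+SGLT2i against C (95% CI 1.18 to 1.82, limma adjusted p = 0.049). It was the only one of the 36 genes past the adjusted threshold in that fit, beside 0.122% of all genes, and it passed for all diabetic mice as well (1.29, limma adjusted p = 0.0449), beside 0.2%, but not in the fit with all controls (0.59 and 0.38, limma adjusted p = 1 and 0.988). The sum of 12 macrophage markers, a list without C1q genes, moved with C1qa. It was 173 and 176 CPM in control replicates 8 and 9, between 216 and 389 CPM in the diabetic mice and 622 CPM in control replicate 2. Csf1r, the most abundant marker of this list, did not follow C1qa. Its level was 95.4, 77.4 and 68.8 CPM in control replicates 2, 8 and 9. In DM-22 replicates 1 and 2 it was 110 and 37.3 CPM, and in DM+SGLT2i mice 75.1 and 84.9 CPM. C1rl, a C1r-like protease, had lower levels in the diabetic mice (27.8 to 36.1 CPM) and control replicate 2 (31.7 CPM) than in control replicates 8 and 9 (49.6 and 45.1 CPM).

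**Figure D3:**
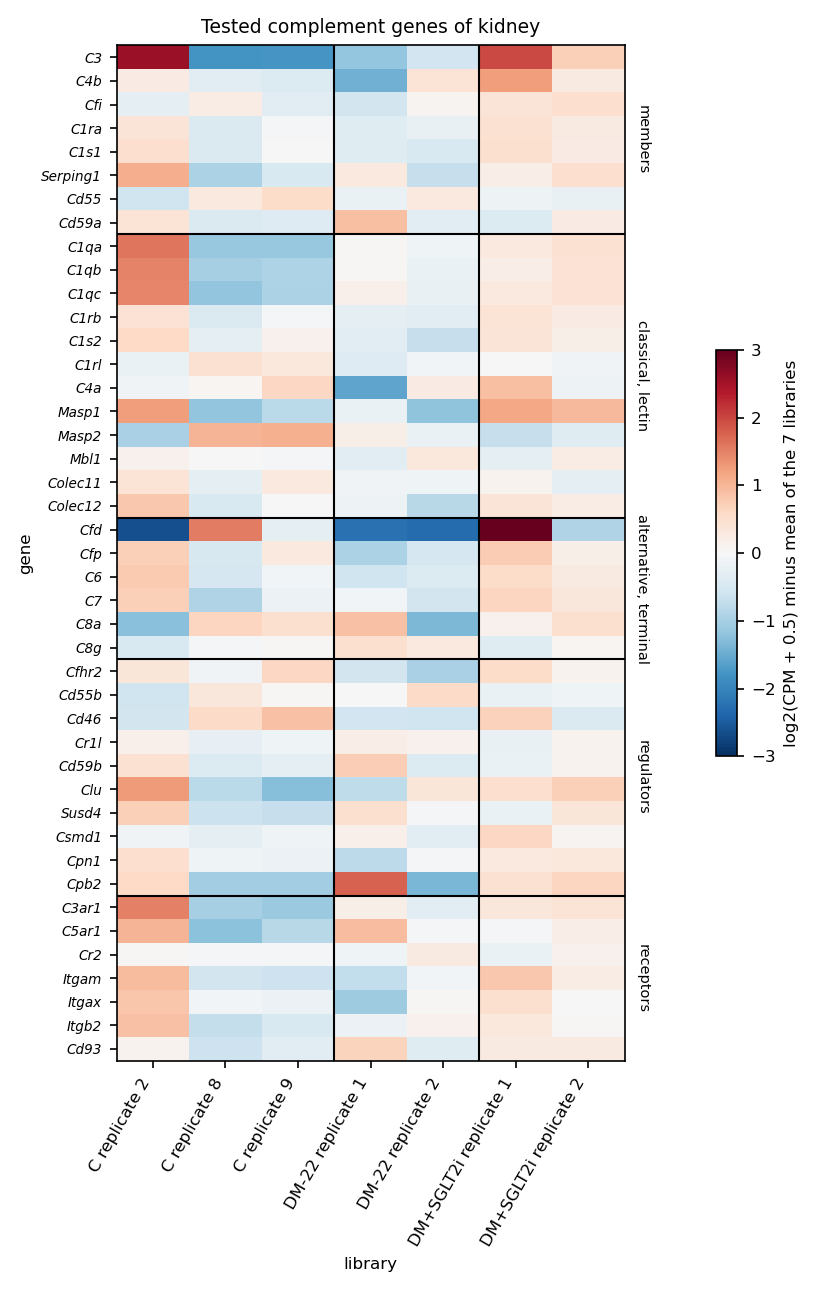
Deviation of tested complement genes (the 8 members first, then others, in rows grouped by role) from their own mean over the 7 libraries (columns), as log2(CPM + 0.5), with colours ending at 3 on either side. Control replicate 2 is red for C3, the C1q genes and the receptor C3ar1 where control replicates 8 and 9 are blue, and Cfd, at 687 CPM in DM+SGLT2i replicate 1, runs past the end of the scale.

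Other abundant genes of the lists had these values. Clu, clusterin, an inhibitor of the membrane attack complex, was at 1190, 280 and 204 CPM in control replicates 2, 8 and 9, at 292 and 635 CPM in DM-22 and at 706 and 810 CPM in DM+SGLT2i mice. Cpn1, a carboxypeptidase that inactivates C3a and C5a, lay between 49.9 and 123 CPM. C8a, of the terminal complex, was at 27.8 and 5.57 CPM in the 2 DM-22 mice. Of the receptors, Cd93 lay between 21.6 and 53.5 CPM, Itgb2, a chain of complement receptors 3 and 4, between 5.43 and 17.4 CPM, and C3ar1, the receptor for C3a, between 1.90 and 14.3 CPM with its highest value in control replicate 2.

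Markers of cells that could carry complement transcripts moved with several members. The 12 macrophage markers summed to 622, 173 and 176 CPM in control replicates 2, 8 and 9, to 358 and 216 CPM in DM-22 and to 345 and 389 CPM in DM+SGLT2i mice, with none at 0 in any library. The 8 fibroblast and matrix markers summed to 735, 195 and 258 CPM in controls, to 235 and 156 CPM in DM-22 and to 588 and 443 CPM in DM+SGLT2i mice, an order shared with C1ra and C1s1 in that control replicate 2 and both DM+SGLT2i libraries held the 3 highest values. Proximal tubule markers summed to 9229, 33869 and 31080 CPM in control replicates 2, 8 and 9. They summed to 20314 and 34651 CPM in DM-22 and to 16880 and 21484 CPM in DM+SGLT2i mice. This order was opposite to that of the fibroblast markers except in DM-22 replicate 1. That library lay below DM+SGLT2i replicate 2 and control replicate 9 in both sums. Kap was the most abundant of these 8 markers, at 2090, 17573 and 16868 CPM in the controls. Its level was 12472 and 19037 CPM in DM-22 and 5808 and 10642 CPM in DM+SGLT2i mice. Tubular injury and acute-phase genes summed to 5139 CPM in control replicate 2 and to between 608 and 2342 CPM elsewhere. Most of this sum was Spp1 alone, at 4898 CPM in control replicate 2 and at 542 to 2223 CPM elsewhere. The part of these cell types in the differences of C3, C1ra, C1s1, Serping1 and the C1q genes was not tested.

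Adipose transcripts set DM+SGLT2i replicate 1 apart. The 8 adipose markers summed to 529 CPM in that library and to between 36.4 and 82.2 CPM in the other 6, with 1 of the 8 at 0 in control replicate 2 and in DM-22 replicate 2. Adipoq, which defines fat cells, was at 76.0 CPM there and at no more than 3.31 CPM elsewhere. Cfd, factor D or adipsin, the alternative pathway protease made mainly by fat, was at 687 CPM in this library and between 0.495 and 17.2 CPM in the others. C3 (224 CPM) and C4b (73.2 CPM) were also higher there than in DM+SGLT2i replicate 2. Without this library the log2 fold change of C3 in DM+SGLT2i against DM-22 was 1.59 in place of 2.21, and leaving out control replicate 2 as well, a fit chosen after seeing the data with 1 DM+SGLT2i mouse assumed to vary like the others, it was 2.51 against C and 1.59 against DM-22, with limma adjusted p of 0.265 and 1. C1ra and C1s1 in DM+SGLT2i against DM-22 were at 0.56 and 0.65 without it. Of 8 hepatocyte markers 7 were in the table, with none at 0, and they summed to between 553 and 1301 CPM. The most abundant was Apob, at 239 to 418 CPM, and albumin was at 8.10 to 14.4 CPM. The parts of fat and of liver-type transcripts in the members' levels were not tested.

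**Figure D4:**
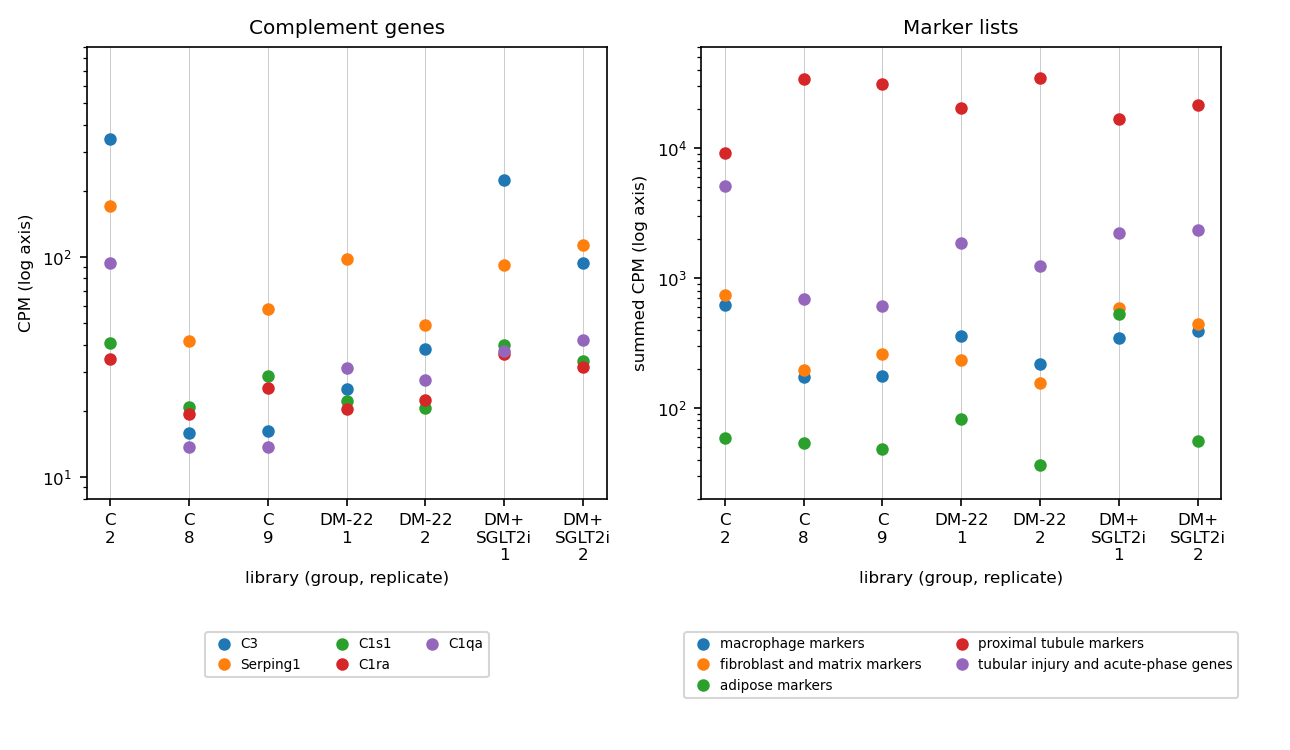
Level of 5 complement genes (left, CPM, log axis) and summed level of 5 marker lists (right, CPM, log axis) in each of the 7 libraries, 1 point per library. Control replicate 2 has the highest macrophage (622 CPM), fibroblast (735 CPM) and injury (5139 CPM) sums and the lowest proximal tubule sum (9229 CPM), and adipose markers stand at 529 CPM in DM+SGLT2i replicate 1. The injury sum is mostly Spp1.

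The genes whose pattern over the 7 libraries was most like each member were found by Pearson's r on log2(CPM + 0.5) among all tested genes, and are a description, since the best 3 of 13975 are high by selection. For C3 they were Apbb1ip (r = 0.995), Cd300ld2 (r = 0.994) and Ctnnd2 (r = 0.994). For C1ra they were Clec10a (r = 0.993), Inpp5d (r = 0.992) and its copy C1rb (r = 0.987), and for C1s1 C1rb (r = 0.993), Slfn9 (r = 0.991) and Apba1 (r = 0.983). For Serping1 they were Tmem45a (r = 0.994), Oasl2 (r = 0.990) and Tlr7 (r = 0.989). For C4b Sgsm1 (r = 0.986) and Cad (r = 0.978) are given, for Cfi they were Pls1, Sh3tc2 and Selenoi (r = 0.961 to 0.974), for Cd55 Gtf2h2, Zfp598 and Sirt3 (r = 0.983 to 0.991) and for Cd59a Gsg1l, Tpd52l1 and Mrps6 (r = 0.991 to 0.992). Spearman's rho of these 24 pairs lay between 0.79 and 1, and r without the 2 libraries farthest from the member's median between 0.92 and 1. The same 7 libraries enter the r of every pair, so the pairs are not independent of each other.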

How the data were processed

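Whole-kidney polyA RNA of 7 mice was sequenced from strand-marking libraries. Per the submitters' processing notes, bcl2fastq, FastQC, Trim Galore, STAR, edgeR and the mm10 build were used. Versions, the read counter and the annotation are not given in the sources used here. The authors deposited log2 values of TMM-normalized CPM for 17537 genes, with a constant of about 2 reads added. CPM were recovered by subtracting the shared floor (0.0395 CPM) after exponentiation, and the reads were whole (within 0.05) for 100% of values. The TMM factors lay between 0.891 and 1.08, and without them the median of all genes would shift by -0.162 to 0.105 (log2) between libraries. The columns are named as normalized CPM, and the design assumed CPM.

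The 13976 genes that reached 1 CPM in 2 or more libraries were fitted together with limma 3.58.1 in R 4.3.3 (lmFit, eBayes with trend, log2(CPM + 0.5), 3 groups, two-sided, Benjamini-Hochberg threshold 0.05), tested on simulated data. Fold changes on this scale understate those of low genes. Groups and replicate numbers came from the labels. Nothing says that libraries are other than 1 per mouse. With 2 or 3 mice a group, p-values set each difference against the spread between these samples within groups, pooled over the groups fitted. Exon lengths and overlaps were taken from GENCODE M21 (all 17537 identifiers matched), and promoters from RefSeq. Python 3.11.15 was used for tables. Members and lists were chosen with earlier results of these data known. Named were all members, of other complement genes those past the threshold, the 3 most abundant of each list and the largest estimate per comparison, close copies, the 3 most alike genes per member and leading markers. Some results under this rule are not reported here. The labels give male mice, whereas the study's methods name both sexes.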

Additional observations from a re-analysis of the deposited data

How the results depend on the processing

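None of the 8 tested members passed the adjusted threshold under any alternative, and the smallest limma adjusted p of a member was 0.0707. The pseudocount, filter, deposited log2 values, scaling and voom weights with all 7 libraries reversed no log2 fold change of a member. Leaving out 1 library reversed 16 of 32, and the cause was not tested. In DM-22 against C these were C3 -1.27 to 0.92, C4b -1.28 to 0.58, Cfi -0.42 to 0.21, Serping1 -0.60 to 0.49, Cd55 -0.37 to 0.22 and Cd59a -0.20 to 1.03. In all diabetic against C these were C3 -0.17 to 2.03, C4b -0.18 to 0.75, C1ra -0.13 to 0.28, C1s1 -0.29 to 0.19, Serping1 -0.24 to 0.77, Cd55 -0.49 to 0.08 and Cd59a -0.07 to 0.54. In DM+SGLT2i against DM-22 these were Cd55 -0.49 to 0.02 and Cd59a -0.98 to 0.25. In DM+SGLT2i against C these were Cd59a -0.27 to 0.37. The number of other complement genes called ranged from 0 to 1 when 1 library was left out in DM+SGLT2i against C and in all diabetic mice against C, the 1 being C1qa without control replicate 2. In 2 alternatives chosen after seeing the data, C3 in DM-22 against C, C1s1 in all diabetic mice against C and Serping1 in DM-22 against C turned to 0.94, 0.19 and 0.48 with voom weights without control replicate 2, and to 0.92, 0.13 and 0.49 without control replicate 2 and DM+SGLT2i replicate 1. With a replicate block over the 4 diabetic libraries, 0 members and 0 other complement genes passed in DM+SGLT2i against DM-22 (smallest limma adjusted p of a member 0.734), while 4 members in place of 2 had an unadjusted p under 0.05. Deviations of same-numbered mice correlated at -0.041 over the tested genes. With 2 mice a group this rests on 1 difference per group, so it cannot show whether the numbers pair the samples. Groups of 2 and 3 mice limit all intervals, and Cfb and 8 of the 44 other complement genes in the table were too low to test.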
